A study of Mus musculus with 16 samples.

Results

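The nuclear RNAs of undifferentiated female mouse embryonic stem (ES) cells were compared by how many CTCF CLIP peaks they carried for their level and length. A row of the day 0 nuclear RNA-seq list was used if it was at least 1 kb long, held a single transcript ID and lay on chromosomes 1 to 19 or X. These conditions left 8093 of the 40674 listed rows, and 1 further row on chromosome Y was set aside. A row is a transcribed stretch of 1 strand with a level in FPKM, that is, fragments scaled to row length and library size, and its length is its genomic span with any introns. Rows that pool several IDs (10083 rows) and single-ID rows under 1 kb (22497 rows) were not used.

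The zinc fingers of CTCF bind DNA at insulators and at the borders of chromatin domains, and the protein also contacts RNA. In CLIP, UV light links a protein to the RNA it touches, the protein is pulled down and the attached RNA is sequenced. An abundant RNA is met more often than a rare one, so the number of CLIP peaks on an RNA has to be read against its level in the same nuclei.

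The CLIP cells at day 0 were undifferentiated ES cells of strain CAST/Ei x 129/Sv/Jae, grown attached and with LIF, irradiated with UV and pulled down with anti-FLAG M2 beads, with 2 libraries. The day 0 RNA-seq came from nuclear lysate of the same protocol, taken before sonication, depleted of ribosomal RNA and made into a strand-specific library, with 1 library. Day 3 cells had been 3 days without LIF in suspension and had 2 CLIP libraries and 1 RNA-seq library of the same strain. CTCF ChIP at day 0 had 2 libraries of strain 129S1/CastEiJ x 129S1. Nothing in the labels says that the CLIP libraries came from separate cultures. The p-values thus hold only the spread between these 2 libraries, moderated across the tested rows, and that spread may be technical. The labels give no tagged line or promoter for the FLAG epitope, and CLIP libraries without UV were not analysed here.

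The CLIP lists held 114016 peaks in replicate 1 and 213181 peaks in replicate 2, with median widths of 46 and 38 bp. The 8093 rows took 4.27% and 4.12% of all peak bases, while the pooled rows took 78.2% and 78.4%. Read depth is unknown for these lists. The IDs are those of a transcript assembly and are not paired with gene names, so rows are given by mm9 position. For the same reason the ES cell label could not be checked against marker genes, and exons, introns and UTRs could not be told apart. An ID of the TCONS class was carried by 3904 rows, with a median length of 6418 bp and a median level of 0.67 FPKM. The other 4189 rows had an assembly ID of the CUFF class only, with a median length of 1431 bp and a median level of 6.83 FPKM.

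Most rows carried no peak. A same-strand peak lay in 1620 rows (20.02%) in replicate 1 and in 2170 rows (26.8%) in replicate 2. Both libraries had a peak in 1198 rows (14.8%), called bound rows here, only one library had one in 1394 rows, and neither had one in 5501 rows (68.0%). Just above the length limit, 37 of 851 rows of 1000 to 1099 bp (4.35%) were bound, and just below it, 59 of 1142 rows of 900 to 999 bp (5.17%) were.

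The share of bound rows was higher in each higher FPKM class, in every length class, except between the lowest 2 FPKM classes of rows of 1 to 2 kb (1.72% under 0.5 FPKM and 0.84% at 0.5 to 2 FPKM). Among rows of 10 to 30 kb, 10 of 433 rows under 0.5 FPKM were bound, which is 2.31% with an exact 95% interval of 1.11% to 4.21%. In the same length class, 80 of 118 rows of 5 to 10 FPKM were bound (67.8%, 58.6% to 76.1%), and so were 41 of 47 rows of 10 to 30 FPKM (87.2%, 74.3% to 95.2%). Short rows were bound less often from 2 FPKM up. Among rows of 1 to 2 kb, 4 of 233 rows under 0.5 FPKM were bound (1.72%, 0.47% to 4.34%), 86 of 948 rows of 10 to 30 FPKM (9.07%, 7.32% to 11.1%) and 26 of 61 rows of 30 FPKM or more (42.6%, 30.04% to 55.9%). The intervals cover counting error only.

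**Figure D1:**
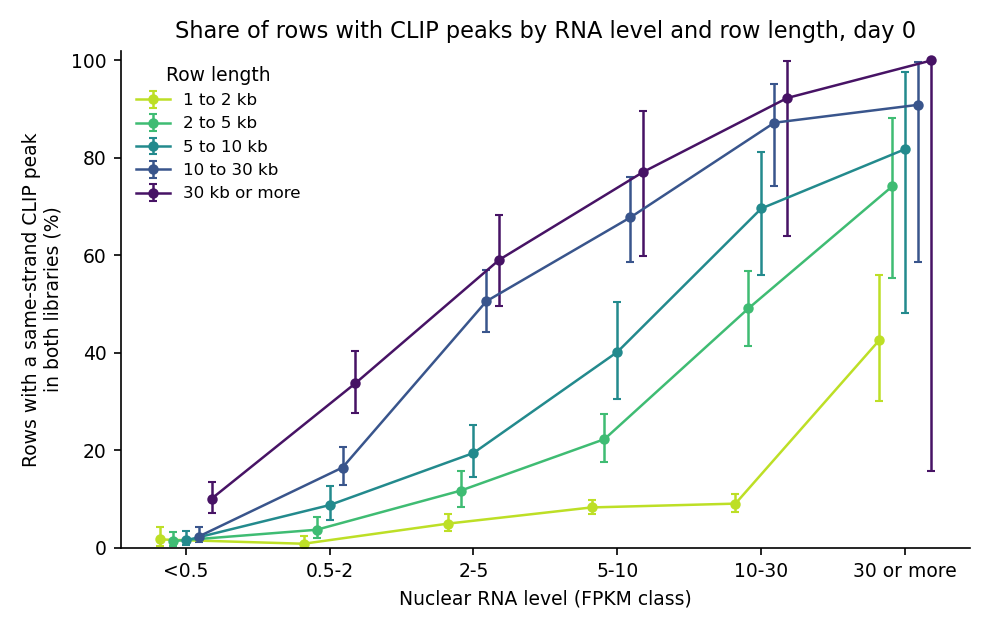
Share of rows with a same-strand CLIP peak in both day 0 libraries (vertical axis, %) by FPKM class (horizontal axis), with a line for each class of row length; bars are exact 95% intervals. The share is 87.2% for rows of 10 to 30 kb and 9.07% for rows of 1 to 2 kb at 10 to 30 FPKM.

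Peak bases per kb followed level and length as well. For rows of 10 to 30 FPKM, the pooled density was 9.21 peak bases per kb in replicate 1 and 14.8 in replicate 2 at a length of 1 to 2 kb, 26.9 and 47.2 at 2 to 5 kb, 21.0 and 31.3 at 5 to 10 kb, 10.6 and 17.6 at 10 to 30 kb, and 4.92 and 10.5 at 30 kb or more. Density was thus highest in rows of 2 to 5 kb in both libraries at this level. Across all 8093 rows, Spearman's rho between the mean density and FPKM was 0.19. It was 0.10 in rows of 1 to 2 kb, 0.46 at 2 to 5 kb, 0.57 at 5 to 10 kb, 0.65 at 10 to 30 kb and 0.55 at 30 kb or more. These are descriptions across rows that share the same libraries. Longer rows had lower levels (rho of -0.52 between FPKM and length), and with rows from 300 bp on, rho between density and FPKM was -0.0010.

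Each row was therefore set against the 200 rows nearest to it in level and length. Its deviation in a library is the log2 of its same-strand peak bases, plus 50, per kb, minus the median of the same over the nearest rows. A deviation of 1 means a 2-fold higher density than the nearest rows, with the added bases. Among rows of like length, the added 50 bases pull the deviations of rows with few peaks toward 0. In a row without a peak, they also lower the deviation if the row is longer than its nearest rows. The test asks whether a row lay off that median in both libraries, and not whether it lay outside the range of the nearest rows.

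Of the 546 rows whose nearest rows were bound in at least 50% of cases, 116 carried more peak bases than their nearest rows (21.2% of the rows tested) and 73 carried fewer (13.4%), by limma with Benjamini-Hochberg adjustment at 0.05. Mean log2 deviations spanned 1.03 to 4.11 among the rows with more and -2.67 to -1.12 among the rows with fewer. Every called row deviated in the same direction in both libraries. The deviations of all 546 rows correlated between the libraries with Pearson's r of 0.71 and Spearman's rho of 0.69, a description across rows that share 1 RNA-seq library.

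The nearest rows were not always of like level and length, since few rows are very long or very abundant. Within 2-fold of the median level and the median length of their nearest rows lay 86 of the 116 rows with more, 61 of the 73 rows with fewer and 481 of the 546 rows. In that subset the log2 deviations ran from 1.06 to 3.09 for rows with more. Against the spread of their nearest rows, 101 of 116 lay above the upper quartile in both libraries, and 36 lay above 90% of the nearest rows in both. Of the 73 rows with fewer, 6 lay below the lower quartile in both libraries. For some of the 73, such as the row at chr7:140968131-141073215, that quartile was 0 in both libraries, and no row can lie below 0. This count thus cannot be set beside the 101 of 116. A median of 15.5% of the nearest rows of the 73 had no peak in either library.

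Over all 8093 rows, the same test passed 133 rows with more (1.64%) and 1 row with fewer (0.0124%), and 4024 rows had an unadjusted p under 0.05. Of these 134 rows, 116 had no peak in either library, 115 of them counted as more. For a row without a peak, the deviation comes from its length relative to rows that mostly have no peak either. Deviations of these 115 rows reached at most 0.56, and the 546 rows are used below. Of the 116 rows with more among the 546, 1 passed in the test over all rows, and of the 73 with fewer none did, with adjusted p (limma) of 0.0375 to 0.323 and 0.061 to 0.346. Adjusted p-values printed for single rows at day 0 below are over the 546.

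**Figure D2:**
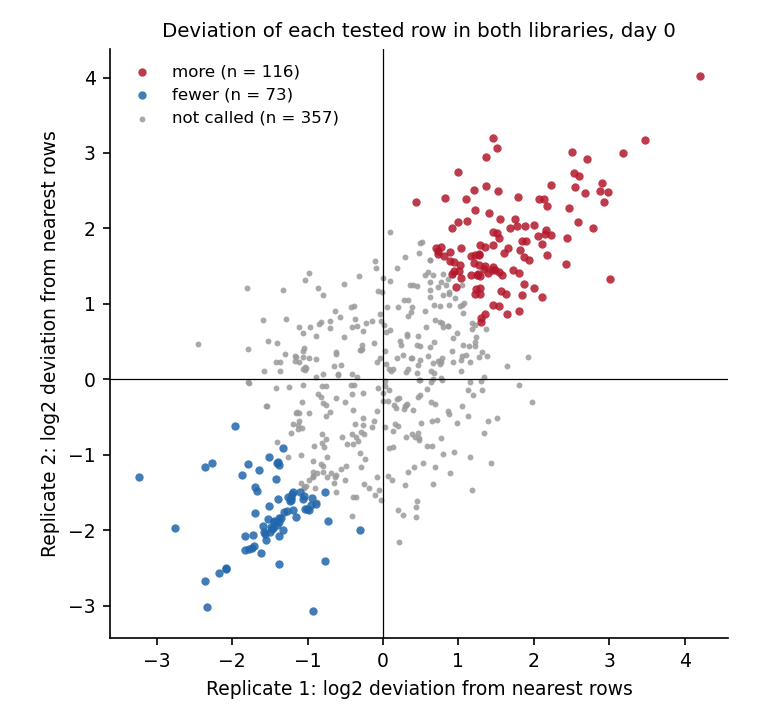
Log2 deviation of each of the 546 tested rows from its nearest rows in replicate 1 (horizontal axis) and replicate 2 (vertical axis); red points are the 116 rows with more peak bases, blue points the 73 rows with fewer, grey points the rows not called. The row at the upper right deviates by 4.21 and 4.02.

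The choice of peaks and the per-kb term touch these counts. With both lists brought to the same number of peaks by score, 330 rows were testable and none passed in either direction, with 142 rows at an unadjusted p under 0.05. With no per-kb term, 82 rows with more and 11 rows with fewer passed.

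The row with the largest deviation lay at chr19:5795690-5802671 on the - strand and stood at 784.98 FPKM. It carried 44 peaks in replicate 1 and 39 in replicate 2, which covered 791 and 849 bases per kb, against medians of 28.9 and 35.3 bases per kb in its nearest rows. Most of this RNA was thus covered by peaks in both libraries, and 87.6% of its replicate 1 peak bases were peak bases in replicate 2. Its mean log2 deviation was 4.11 ± 0.446 (moderated SE, n = 2 libraries), with an adjusted p of 3.64e-16 (limma). Each SE given here and below was moderated by limma across the tested rows. It is not the spread of the row's own 2 values, here 4.21 and 4.02. The nearest rows had a median level of 33.1 FPKM only, so they were not of like level. With a smooth of level and length in place of nearest rows, the deviation was 2.12.

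The most abundant row of the list, at chr17:39979939-39985776 on the + strand with 4562.43 FPKM, was covered less. It had 256 and 342 peak bases per kb, against 27.7 and 34.7 in its nearest rows, a log2 deviation of 2.64. With a smooth of level and length its deviation was 0.16, and with rows from 300 bp on it was 1.31, and in neither was it called. Its level was measured after ribosomal RNA depletion, as were all levels, and its nearest rows had a median of 33.1 FPKM. Of this pair, the chromosome 19 row had the higher density at the lower FPKM, and the reason was not tested.

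Further rows with more stood well below these levels, though still in the top 5% by FPKM. The row at chr2:165638827-165652933 on the + strand had 33.76 FPKM and carried 49 and 69 peaks over 14107 bp. That came to 141 and 172 bases per kb, against 8.95 and 14.1 in its nearest rows, a log2 deviation of 3.32 ± 0.432. Its nearest rows had a median of 12.2 FPKM, not a like level, and with a smooth of level and length its deviation was 2.762. The row at chr7:82919712-82925725 on the - strand had 16.46 FPKM with 108 and 180 bases per kb, against 8.38 and 14.8. The row at chr9:96975999-96979734 on the - strand had 32.44 FPKM with 166 and 295 bases per kb, against 15.0 and 21.5, and 72.3% of its replicate 1 peak bases recurred in replicate 2. With a smooth of level and length in place of nearest rows, the log2 deviation of the chromosome 9 row was 2.05 and not 2.76. On chromosomes 7 and 9, the levels and lengths of both rows were within 2-fold of those of their nearest rows. The adjusted p (limma) was 1.79e-11 for the chromosome 2 row, 5.28e-06 for the chromosome 7 row and 5.67e-06 for the chromosome 9 row.

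A further pair of rows could be followed in the day 3 libraries, where the list holds the same coordinates. The row at chr14:31825620-31832275 on the - strand, with 23.15 FPKM, had 137 and 144 bases per kb, against 11.3 and 15.7 in its nearest rows. The row at chr9:64021194-64026369 on the + strand, with 177.04 FPKM, had 329 and 273 bases per kb, against 27.7 and 34.0. Its nearest rows had a median of 31.9 FPKM, so the second comparison is not at like level. With the smooth of level and length, the deviation was 2.04 for the chromosome 14 row, against 2.75 with nearest rows, and 1.21 for the chromosome 9 row, against 2.73.

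**Figure D3:**
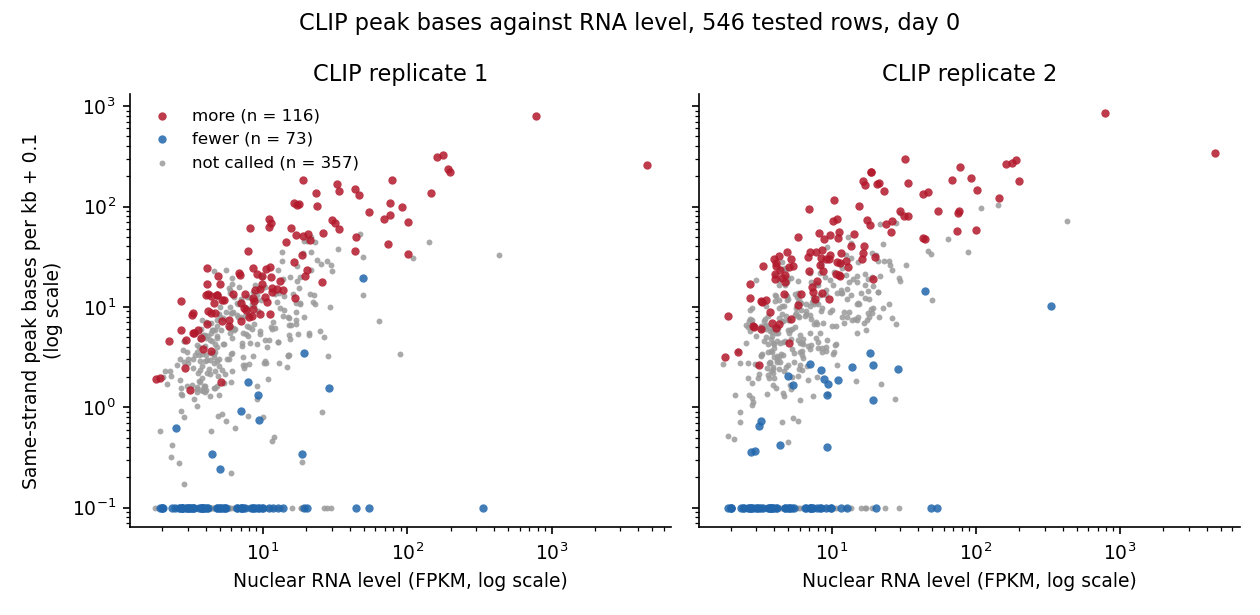
Same-strand peak bases per kb plus 0.1 (vertical axis, log scale) against nuclear RNA level in FPKM (horizontal axis, log scale) for the 546 tested rows in replicate 1 (left) and replicate 2 (right); red points are the 116 rows with more peak bases, blue the 73 rows with fewer, grey the rows not called. Points on the lowest line have no peak, and the densest point is the chromosome 19 row with 791 and 849 bases per kb.

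Rows with fewer peak bases were mostly long rows with none, which the score itself favours. Of the 73 rows, 48 had no peak in either library, against 19 of the 357 rows not called. This contrast follows from the calls, which were made on peak bases. At a given density of its nearest rows, a row without a peak also scores lower the longer it is. Length is thus not a separate trait of these rows. The row at chr9:23026785-23097961 on the + strand spanned 71177 bp at 9.92 FPKM and had no peak, against medians of 2.32 and 4.21 bases per kb in its nearest rows. Its log2 deviation was -2.67 ± 0.442 (moderated SE, n = 2 libraries), with an adjusted p of 2.91e-07 (limma). Of its nearest rows, 12.5% also had no peak. The row at chr7:140968131-141073215 on the + strand spanned 105085 bp at 3.94 FPKM and had none, against 1.37 and 2.08. With no per-kb term, the log2 deviations of these rows were -1.965 and -1.70, and both kept their call.

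Shorter rows had none as well. The row at chr13:47120539-47139454 on the - strand, 18916 bp at 9.91 FPKM, had no peak in either library, against 5.75 and 8.92 bases per kb in its nearest rows. The row at chr14:77436121-77467923 on the + strand, 31803 bp at 8.28 FPKM, had none either, against 3.19 and 5.71. Both rows were within 2-fold of their nearest rows in level and length, with adjusted p of 1.49e-04 and 1.08e-04 (limma).

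High level did not ensure peaks. Of the 405 rows in the top 5% by FPKM, from 16.41 FPKM up, 160 (39.5%) were bound and 183 (45.2%) had no peak in either library. The rows without a peak had a median length of 1225 bp, against 3420.5 bp for the bound rows. Of these 405 rows, 103 were among the 546, and 41 of them were called with more and 9 with fewer. Over all 546 rows, 116 (21.2%) were called with more and 73 (13.4%) with fewer. Abundant rows can have nearest rows of lower level. A level over 2-fold above the median of the nearest rows was held by 28 of the 116 rows with more. The same was true of 9 of the 73 rows with fewer and 20 of the 357 rows not called.

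The row at chr12:55820170-55835696 on the - strand was the most abundant of the 73 rows with fewer. It had 333.17 FPKM and 15527 bp, with no peak in replicate 1 and 4 peaks in replicate 2, or 0 and 10.0 bases per kb. Its nearest rows had medians of 15.4 and 23.6 bases per kb at a median of 23.9 FPKM. Its log2 deviation was -2.27 ± 0.516 with an adjusted p of 1.98e-04 (limma). The libraries differed, at -3.239 in replicate 1 and -1.295 in replicate 2, and the moderated SE does not show this. The nearest rows had a median length of 5732 bp only, so they were not of like length either. With no per-kb term its deviation was -0.95 and with the upper 50% of peaks -1.965, and in neither was it called. The chromosome 17 row above, which was more abundant still, had 67 and 53 peaks. The row at chr5:77778410-77837369 on the - strand, at 19.35 FPKM, had 0 and 2 peaks, or 0 and 1.09 bases per kb, against 4.23 and 5.93, a log2 deviation of -2.36 that was -1.53 with no per-kb term. The nearest rows of that chromosome 5 row, which spanned 58960 bp, had medians of 7.045 FPKM and 28713 bp, so they were not alike. The row at chr17:22446447-22450274 on the - strand had 53.93 FPKM and no peak in either library, against 19.3 and 26.7. Its adjusted p was 0.00647 (limma). Its nearest rows had a median of 23.985 FPKM, not a like level, and 24.5% of them had no peak either.

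The called rows differed in length and level. Rows with more had a median length of 13936.5 bp and a median level of 10.03 FPKM, rows with fewer 34525.0 bp and 5.06 FPKM, and rows not called 16741.0 bp and 6.05 FPKM. The median ratio of a row's FPKM to that of its nearest rows was 1.41 for rows with more, 1.22 for rows with fewer and 1.17 for rows not called. For length, the same ratio was 1.24, 1.31 and 1.14 in that order of groups. The part of these remaining differences in the calls was not tested beyond the 2-fold subset.

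The libraries hit the same bases more often in rows with more peaks. In the 116 rows, 29.5% of replicate 1 peak bases were also peak bases in replicate 2, against 5.46% in the rows not called. Replicate 2 density was 23.8 bases per kb in the rows with more and 6.17 in the rows not called, and its part in this share was not tested. A median of 29.4% of a row's peak bases lay in its densest 1 kb in the rows with more, against 46.7% in the rows not called, but this share is tied to the number of peaks, with medians of 8.5 and 16 peaks per row against 2 and 3. With each row cut into 3 equal lengths, the 5′ piece held 29.1% of the peak bases of the rows with more in replicate 1, the middle piece 29.0% and the 3′ piece 41.9%. The rows not called had 29.0%, 29.5% and 41.5%. In replicate 2 the 5′, middle and 3′ pieces held 30.5%, 28.5% and 41.0% in the rows with more, against 30.6%, 32.6% and 36.8% in the rows not called.

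Rows with fewer peaks often had a listed row on the opposite strand. Such a row overlapped 54 of the 73 rows with fewer (74.0%) and 44 of the 116 rows with more (37.9%), against 173 of the 357 rows not called (48.5%). The rows with fewer were also the longest, and the part of length in this share was not tested. Opposite-strand CLIP peaks were not denser there: they covered 0.121 and 0.161 bases per kb in the rows with fewer and 0.30 and 0.40 in the rows with more, against 0.212 and 0.423 in the rows not called.

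A CTCF ChIP peak found in both day 0 libraries lay in 49 of the 116 rows with more (42.2%) and 44 of the 73 rows with fewer (60.3%), against 153 of the 357 rows not called (42.9%). The rows with fewer were the longest, and per length the order was another. Day 0 ChIP peaks found in both ChIP libraries numbered 1.88 per 100 kb in rows with more and 1.76 in rows with fewer, against 2.15 in rows not called and 2.18 over all 8093 rows. The ChIP cells were of another cross than the CLIP cells, per the labels.

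The X chromosome held 20 of the 546 tested rows. Of these 20 rows, 9 were called with more (45.0%) and none with fewer by limma, against 107 with more (20.3%) and 73 with fewer (13.9%) among 526 autosomal rows. The median log2 deviation was 1.07 for the X rows and 0.12 for the autosomal rows. This X to autosome difference was not tested. X rows had a median of 8.28 FPKM against 6.36 for autosomal rows. In the subset within 2-fold of the nearest rows, 4 of 14 X rows were called with more, against 86 of all 481 rows (17.9%). Over all rows, 67 of 364 X rows (18.4%) were bound, against 1131 of 7729 autosomal rows (14.6%).

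A 53.4 kb stretch of the X + strand held 3 of those 9 rows; it was chosen after its values were seen. Between chrX:100626856 and 100680296 lay 7 rows with peaks in both libraries, at 10.18 to 25.66 FPKM. All 7 were above the median of their nearest rows in both libraries. They were picked for having peaks, and for several of them that median was 0 bases per kb, so this was largely fixed in advance. The row at chrX:100656392-100661201 had 18.78 FPKM and 21 and 24 peaks, or 183 and 221 bases per kb, against 9.41 and 16.5 in its nearest rows. Its log2 deviation was 3.09 ± 0.524 with an adjusted p of 5.01e-07 (limma), and 2.497 with the smooth of level and length. The next row, at chrX:100661802-100664718 with 13.98 FPKM, had 173 and 229 bases per kb, against 0 and 3.98. The row at chrX:100676058-100680296 had 50.5 and 222 bases per kb, against 8.71 and 17.2, so its replicates differed by more than 4-fold. The flanking rows on this strand had low levels. The row at chrX:100609806-100619919 had 1.43 FPKM and no peak, and the row at chrX:100688895-100701353 had 0.15 FPKM and 0 and 1 peaks.

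The 6 other X rows with more lay elsewhere on the chromosome. The row at chrX:39501892-39630362 on the + strand was the longest, with 128471 bp, and had 28 and 49 peaks. That came to 9.44 and 13.6 bases per kb at 8.56 FPKM, against 1.56 and 2.58 in nearest rows with a median of 3.505 FPKM. The row at chrX:53838689-53851246 on the - strand had 35.9 and 35.4 bases per kb, against 4.88 and 7.32. At chrX:34138201-34146074 on the + strand a row of 54.53 FPKM had 87.5 and 90.9, against 16.5 and 22.2 in nearest rows with a median of 18.2 FPKM.

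A fixed fold took in shorter rows outside the 546. At least 4-fold above their nearest rows in both libraries were 79 of the 8093 rows (0.976%), with a median length of 3169 bp and a median level of 12.35 FPKM. Of these 79 rows, 21 were among the 546 and all 21 were called with more, while the other 58 had nearest rows that were mostly not bound. In the limma test over all 8093 rows, 4 of the 79 passed, 3 of them among these 58. Of the 79 rows, 66 were within 2-fold of their nearest rows in level and length. Above 95% of their nearest rows in both libraries lay 57 of the 79 rows and 152 of all 8093. The 79 were chosen by their height above the same nearest rows, so this rank is not separate support. At least 4-fold below in both libraries were 24 rows (0.297%), 21 of which were over 2-fold longer than the median of their nearest rows. The medians of their nearest rows were themselves about 0, at a median of 0 and 0.039 bases per kb. With no per-kb term, 0 rows were 4-fold below.

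The highest of these 58 rows lay at chr19:4767131-4773424 on the - strand. At 7.89 FPKM it had 14 and 33 peaks, or 105 and 187 bases per kb, against 0.355 and 6.29 in its nearest rows. The row at chr13:90242655-90251862 on the + strand had 3.74 FPKM and 53.8 and 87.4 bases per kb, against 0 and 2.94. At chr7:140177554-140178610 on the - strand, a row of 1057 bp at 19.94 FPKM had 445 and 233 bases per kb, against 0 and 0. Of the nearest rows of that short row, 81.0% had no peak in either library.

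Rows that stood 4-fold above often had another listed row close by. Another listed row of the same strand lay within 5 kb of 62 of the 79 rows (78.5%). That held for 545 of the 1119 other bound rows (48.7%) and 2654 of all 8093 rows (32.8%). The 79 rows had medians of 3169 bp and 12.35 FPKM, the other bound rows 9055 bp and 5.26 FPKM. The part of length and level in these shares was not tested. Merged over gaps of up to 50 kb on 1 strand, the 79 rows formed 59 loci, and 9 of these loci held 29 of the rows, while the other 50 rows were each alone in their locus. Whether neighbouring rows are pieces of 1 RNA was not tested, and the rows of a locus are not independent of each other.

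The stretch at chr5:33848918-33873363 on the - strand held 7 rows, and 6 of them were 4-fold above in both libraries. The levels of these 6 rows were 9.77 to 17.15 FPKM, with 82.6 to 142 bases per kb in replicate 1 and 112 to 224 in replicate 2. The remaining row, at chr5:33851536-33856410, had 105 and 73.2 bases per kb, against 8.71 and 17.3. At chr19:4763569-4782114 on the - strand, all 5 rows were 4-fold above, at 7.89 to 12.35 FPKM. At chr12:110902927-110935991 on the + strand 4 of 9 rows were, and at chr9:39994632-40043837 on the - strand 4 of 11. On the chromosome 9 stretch, 1 row at chr9:40037394-40038534 had no peak in either library at 5.52 FPKM, while the row after it had 77.5 and 146 bases per kb, against 0 and 0 in its nearest rows.

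**Figure D4:**
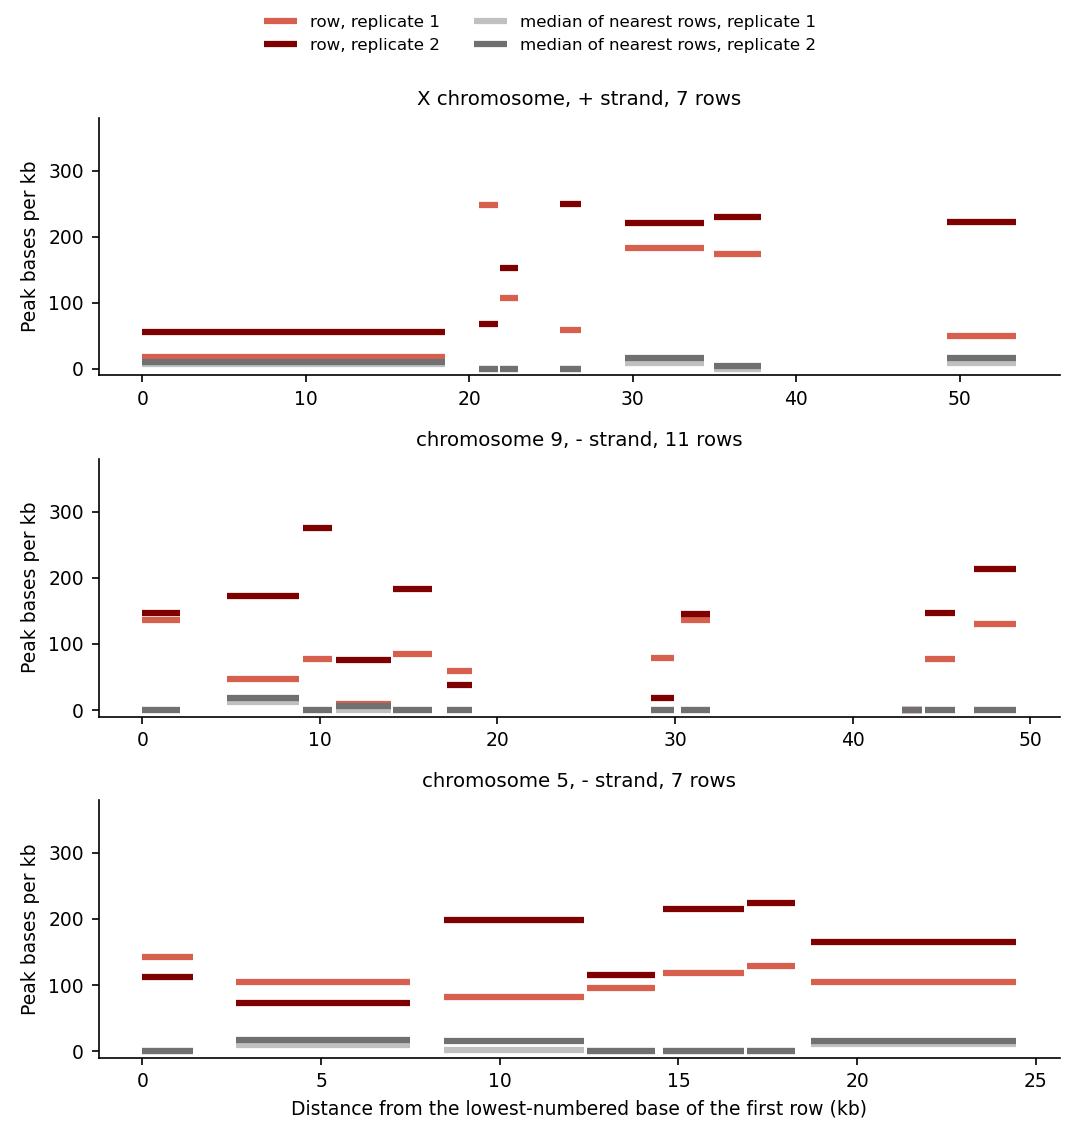
Peak bases per kb (vertical axis) of each row along 3 stretches of 1 strand (horizontal axis, distance in kb), in replicate 1 (light red) and replicate 2 (dark red), with the medians of the nearest rows in grey. The 7 X rows shown were picked for having peaks in both libraries. Of the 11 chromosome 9 rows and 7 chromosome 5 rows, only the chromosome 9 row at 5.52 FPKM had no peak.

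The day 3 libraries were not used to call the rows. Of the 8093 rows, 1664 (20.6%) were listed at day 3 with the same start and end, and each was set against its nearest rows of the day 3 list. Of the 736 day 3 rows whose nearest rows were mostly bound, 92 were called with more (12.5%) and 85 with fewer (11.5%) by limma with Benjamini-Hochberg adjustment. Of the day 0 rows with more, 12 were tested at day 3: 10 were above their nearest rows in both day 3 libraries, 6 were called with more and none with fewer. Of the day 0 rows with fewer, 8 were tested at day 3: 7 were below in both libraries, 5 were called with fewer and none with more. Of 39 rows not called at day 0, 3 were called with more and 4 with fewer at day 3. The median day 3 log2 deviation was 1.19 for the rows with more at day 0 and -1.52 for the rows with fewer. Whether the rows changed between the days was not tested.

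The chromosome 14 row above had 107 and 113 bases per kb at day 3 at 33.64 FPKM, against 9.54 and 15.5 in its day 3 nearest rows, with an adjusted p of 9.18e-04 (limma). The chromosome 9 row of 177.04 FPKM had 214 and 269 at day 3, against 17.9 and 30.9. The row at chr19:44368166-44381354 on the + strand had a density of 83.3 and 129 after 3 days, against 9.76 and 16.1 in its day 3 nearest rows. In undifferentiated cells it had carried 49.6 and 47.7 peak bases per kb. At the other end, the row at chr13:23675611-23712963 on the - strand had 31.83 FPKM at day 3 with 0.643 and 0 bases per kb, against 6.99 and 10.96, and an adjusted p of 1.97e-05 (limma). At day 0 it had 28.84 FPKM with 1.45 and 2.33 bases per kb, against 6.13 and 9.997. Its day 0 nearest rows had a median of 8.85 FPKM, so they were not of like level. The row at chr6:122555421-122560105 on the - strand did not keep its place: its density was 1.28 and 42.0 at day 3, against 9.59 and 15.5 in its day 3 nearest rows, and 54.6 and 71.1 in undifferentiated cells.

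**Figure D5:**
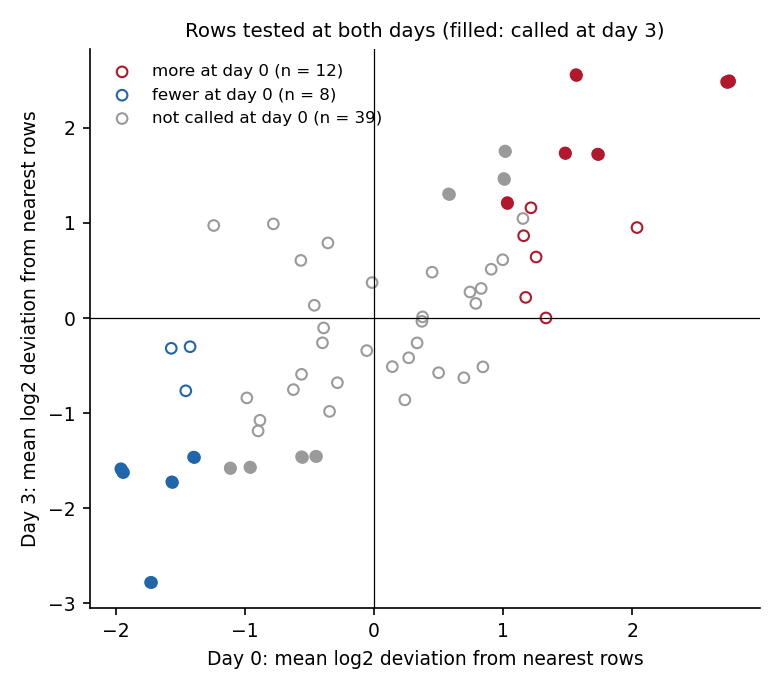
Mean log2 deviation from the nearest rows at day 0 (horizontal axis) and at day 3 (vertical axis) of the rows tested at both days: 12 rows with more at day 0 (red), 8 with fewer (blue) and 39 not called (grey); filled points were called at day 3. No row called at day 0 was called in the other direction at day 3.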

How the data were processed

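Per the submitters' processing notes, build mm9 was used with Cufflinks 2.1.1, bedtools 2.17.0, TopHat2 2.0.8, SAMtools 0.1.18, Trim Galore 0.3.3, Novoalign 3.00.03 and cutadapt 1.0, and the role of each is not stated. No source used here names the peak caller. The RNA-seq list deposited by the authors holds a value per row read as FPKM, the unit Cufflinks gives, though the file does not name it. The CLIP and ChIP lists deposited by the authors hold a score per peak, used only to rank peaks within a list. Peaks were listed per library.

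Same-strand peak bases were summed per row. The 200 nearest rows were found in log2 FPKM and log2 length, each divided by its SD. Deviations used 50 added bases and were tested against 0 over the 2 CLIP libraries, two-sided, with limma 3.58.1 in R 4.3.3, the spread moderated along the expected bases. The main test covered all 8093 rows, where 116 of its 134 calls had no peak, so, by a choice made after these results were seen, the text leads with the rows whose nearest rows were bound in at least 50% of cases. Steps were tested on simulated data. The members and lists were chosen with earlier results of these data known.

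Named rows were the 15 highest and the 15 lowest called rows of at least 1 FPKM, and the 10 lowest rows of the top 5% by FPKM, of which some are printed. X rows, 4-fold rows, stretches and day 3 rows were chosen after values were seen. Gene lists and marker lists needed gene names and were not run. Alternatives covered the added bases, the number of nearest rows, a smooth of level and length (mgcv 1.9.3), peak number, peak score, row length, level, the moderation and each library. Scripts ran in Python 3.11.15 with NumPy 2.4.6, matplotlib 3.10.9, SciPy 1.17.1 and pandas 2.3.3.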

Additional observations from a re-analysis of the deposited data

How the results depend on the processing

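The counts over all 8093 rows (133 with more, 1 with fewer) moved by over 1.5 times under most settings. With more and fewer in that order, limma passed 844 and 1613 rows with 200 added bases, 36 and 0 with 100 nearest rows, 246 and 19 with 500, 982 and 29 with a smooth of level and length, then 1074 and 2336 with the upper 50% of peaks by score, and 1162 and 3752 with equal numbers of peaks. It passed 580 and 0 with rows from 300 bp and 4 with fewer from 3 kb. It passed 0 and 0 with FPKM of at least 1 (3100 rows at an unadjusted p under 0.05), with no trend (3347) and with no per-kb term (603). The planned limit to rows whose nearest rows were mostly bound left 116 and 73.

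Under that limit 546 rows were tested unless another number is given, since some settings changed which rows met it. Of rows with more, 63 passed with 10 added bases and 76 with 200 added bases. For both directions, 65 and 44 rows passed with 500 nearest rows (337 tested) and 14 and 6 with the upper 50% of peaks (51 tested). The counts were 0 and 0 with equal numbers of peaks (330 tested, 142 at an unadjusted p under 0.05). They were 11 and 4 where at least 75% of the nearest rows were bound (26 tested). With a 25% limit 198 rows with more passed (1362 tested), and with rows from 300 bp 75 did (545 tested). With no per-kb term, 11 rows with fewer passed. The other settings stayed within 1.5 times: 100 nearest rows (107 and 92, 629 tested), the smooth (89 and 86) and peak number (119 and 84). So did rows from 3 kb (129 and 71, 541 tested), FPKM of at least 1 (97 and 104, 563 tested) and no trend (116 and 79). These combinations were chosen after seeing the data. The causes were not tested. The 30 called rows of the naming rule kept their direction wherever they could be tested, and all 24 that could be tested with equal numbers of peaks lost their call there.

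Rows 4-fold above in both libraries (79) numbered 509 and 2 with 10 and 200 added bases, 46 with the smooth, 51 from 3 kb and 120 with no per-kb term, and 132 to 227 in 1 library alone. Rows 4-fold below (24) numbered 101 and 9 with 10 and 200 added bases, 11 and 55 with 100 and 500 nearest rows, 7 with the smooth, 14 with the upper 50% of peaks, 0 with no per-kb term, and 31 to 44 in 1 library alone. The rank correlation of density with FPKM (0.1905) was -0.0010 from 300 bp, 0.5614 from 3 kb and 0.0679 at FPKM of at least 1, and 0.1815 to 0.1936 in 1 library alone.

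No row overlapped another listed row of its strand, so that alternative changes nothing. The exon alternative was not run, since the list holds no exon blocks. No paired analysis was possible because the 2 CLIP libraries were each set against their own nearest rows and no second group was compared.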
